A study of Mus musculus with 12 samples.

Results

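The AP-1 genes and a small set of other immediate early genes were followed in sorted LGR5+ and LGR5- liver cancer organoid cells, untreated or treated with 5-FU. The 10 genes were chosen by name from the 47069 genes of the count table: Fos, Fosb, Fosl1 and Fosl2 of the FOS family, Jun, Junb and Jund of the JUN family, and Egr1, Ier3 and Myc. All 10 passed the filter on low counts, which kept 16157 genes. The organoids were grown from liver tumors of C57BL/6 mice that carried Lgr5-DTR-GFP, a knock-in in which the Lgr5 promoter drives the diphtheria toxin receptor together with GFP. In the study's methods, tumors were induced by the carcinogen diethylnitrosamine, injected weekly from a few weeks of age, and collected months after the last injection, so every group shared the allele and this treatment. Cells were sorted by GFP, with dead cells and those stained for the leukocyte marker CD45 left out per the study's methods, into LGR5+ and LGR5- fractions, which gave 4 groups of 3 libraries: untreated LGR5-, untreated LGR5+, 5-FU-treated LGR5- and 5-FU-treated LGR5+. 5-FU (5-fluorouracil) is a pyrimidine analog that blocks thymidylate synthesis and is incorporated into RNA and DNA. Its dose and duration for the sequenced cells, the age of the particular mice at tumor collection and whether the libraries of a group came from separate cultures or animals are not given in the sources used here, so P values measure the spread between these libraries, which may be technical.

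AP-1 is a dimer of basic leucine zipper proteins, in which FOS proteins cannot pair with each other and need a partner such as a JUN protein, while JUN proteins can also pair with each other or with ATF and MAF proteins. Fos, Egr1 and their relatives are immediate early genes: growth factors, stress kinases and mechanical or enzymatic handling of cells switch them on within minutes, without new protein synthesis, and their mRNAs are short-lived. In liver, JUN and FOS proteins are known for roles in hepatocyte proliferation, regeneration and tumor formation.

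Libraries held 13750591 to 19323514 counted reads, so that the upper limit allowed by a count of 0 (3 reads, counting error only) was 0.155 to 0.218 CPM, and no member was at 0 in any library. The lowest count of a member was 5 reads, for Fosl1 in untreated LGR5- replicate 1. Epithelial markers (Epcam, Krt8, Krt18, Krt19, Cdh1) summed to at least 3095 CPM in every library, whereas the hepatocyte markers Ttr, Hnf4a and Cps1 had at most 3 reads everywhere and the 5 hepatocyte markers summed to at most 2.53 CPM. Lgr5 mRNA itself did not separate the sorted fractions: it was 28.8 ± 6.63 CPM in LGR5- and 25.7 ± 2.12 CPM in LGR5+ untreated cells, and 25.1 ± 9.50 and 27.0 ± 0.196 CPM after 5-FU (SD, n = 3 each; edgeR adjusted P = 1 and 0.842). Mitochondrial genes took 1.47% to 3.08% of the reads except in both libraries numbered LGR5- replicate 3, with 6.93% (untreated) and 6.44% (5-FU). The AP-1 calls, the comparisons between fractions, the within-group correlations and the list counts are also given without these 2 libraries.

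5-FU-treated cells had more mRNA of AP-1 subunits than untreated cells of the same fraction. In LGR5+ cells Fos, Fosl1, Jun, Junb and Jund rose, and in LGR5- cells these 5 genes and also Fosb and Fosl2 rose, by 1.76-fold for Jund in LGR5- cells up to 6.31-fold for Fosl1 in LGR5+ cells. Egr1, Ier3 and Myc, the members outside the FOS and JUN families, did not pass the test in either fraction. At an adjusted P under 0.05 (edgeR quasi-likelihood test, Benjamini-Hochberg over 16157 genes), 5 of 10 members were higher and 0 lower in LGR5+ cells, where 9.66% of all genes tested were called higher and 6.37% lower. In LGR5- cells 7 of 10 were higher and 0 lower, against 8.30% and 7.11% of all genes. By the thresholds named in the study's methods (P under 0.05 before adjustment, with a log2 fold change beyond 1.5), Fos and Fosl1 were higher in LGR5+ cells (2 members; 4.42% of all genes) and Fos, Fosb and Fosl1 in LGR5- cells (3 members; 4.25% of all genes).

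**Figure D1:**
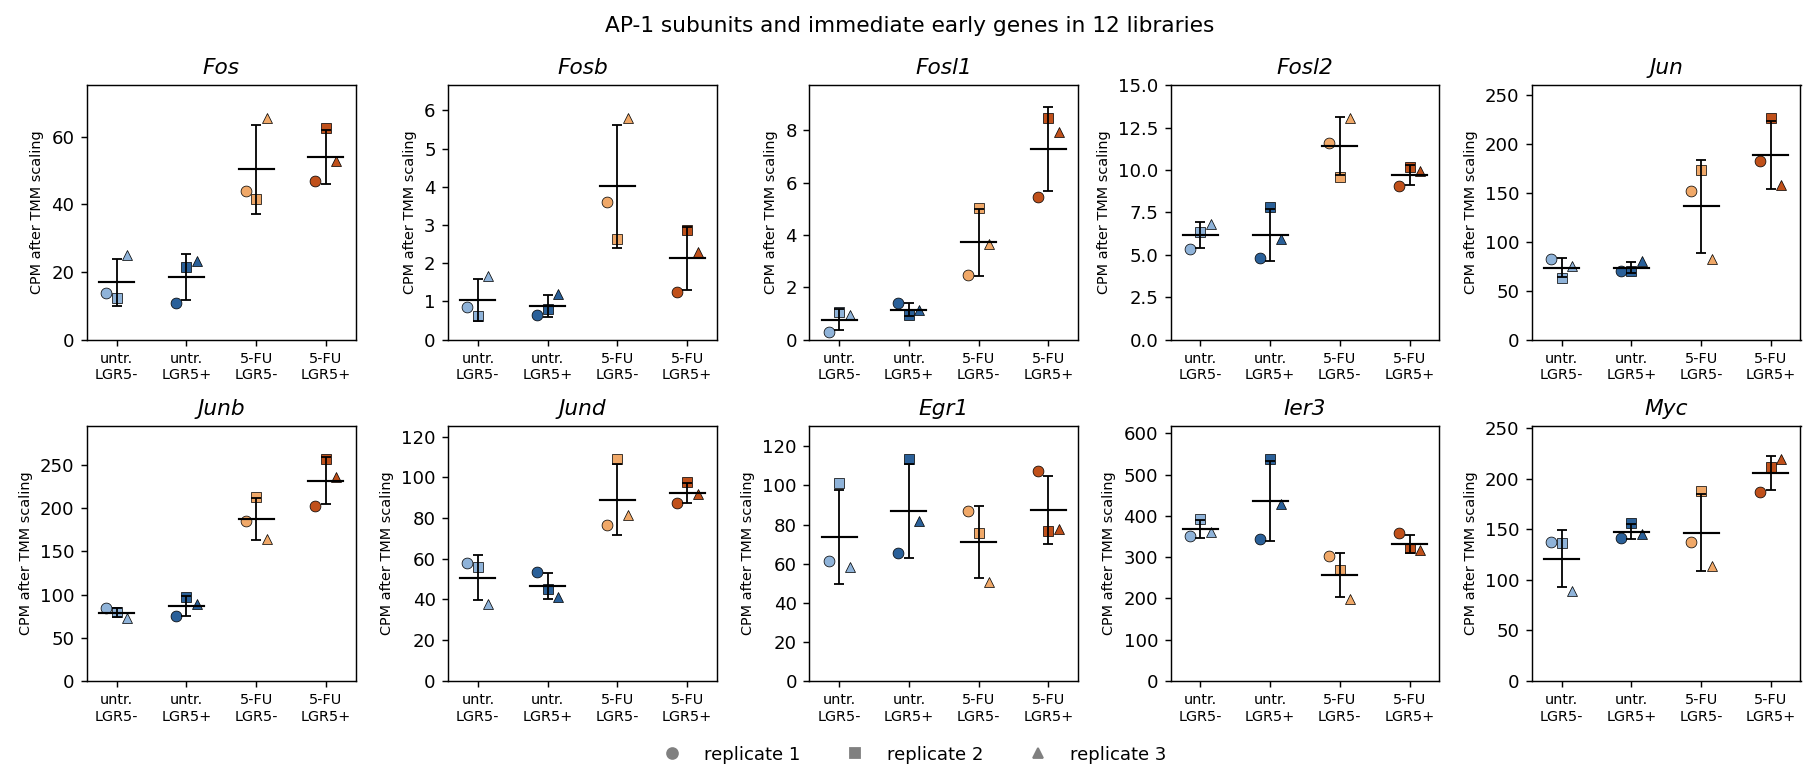
CPM after TMM scaling (y axis, from 0) of the 10 members in each library (points, marker shape for the replicate number) of the 4 groups (x axis), with the mean (horizontal line) and SD (error bar, n = 3). Fos, Fosl1 and Junb lie higher in all 5-FU-treated than in all untreated libraries of the same fraction, whereas Egr1 overlaps across all groups.

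Fos (ENSMUSG00000021250; chr12:85473890-85477273 on the plus strand, GRCm38, 4 exon blocks) encodes the founding FOS subunit. In CPM after TMM scaling, its level was 13.7, 12.2 and 24.9 in LGR5- cells without treatment and 44.1, 41.5 and 65.5 with 5-FU, and 10.7, 21.3 and 23.3 in LGR5+ cells without treatment and 46.8, 62.7 and 52.9 with 5-FU. Every treated library was above every untreated one. The fold was 2.94 in LGR5+ cells (95% interval 1.85 to 4.67, log2 fold change 1.55 ± 0.31 SE, adjusted P = 0.00348) and 2.97 in LGR5- cells (1.87 to 4.72, adjusted P = 0.00396). Fos also varied within groups, by 2.18 times between the lowest and the highest untreated LGR5+ library.

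Fosb (ENSMUSG00000003545; chr7:19302696-19310051, minus strand) encodes a FOS protein whose stable splice form is known from brain. It was the member with the lowest level per length in untreated cells, at 0.848, 0.603 and 1.67 CPM in LGR5- and 0.635, 0.799 and 1.19 CPM in LGR5+ cells. After 5-FU it was 3.59, 2.63 and 5.80 CPM in LGR5- and 1.24, 2.86 and 2.28 CPM in LGR5+ cells. The treated and untreated libraries did not overlap in either fraction, with a gap in LGR5+ cells of only 1.19 against 1.24 CPM. Fosb rose 3.82-fold in LGR5- cells (1.88 to 7.76, adjusted P = 0.0136), while in LGR5+ cells its fold of 2.42 (1.17 to 4.97) had an adjusted P of 0.0919. The LGR5- call was lost without untreated replicate 1 (adjusted P = 0.0556), untreated replicate 2 (0.0584) or 5-FU replicate 3 (0.0572).

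Fosl1 (ENSMUSG00000024912; chr19:5447547-5455946, plus strand) encodes FRA-1, a FOS protein without the transactivation domains of FOS that is often abundant in carcinoma cells. It had the largest fold of the members in both fractions. Its reads numbered 5, 19 and 17 in untreated and 42, 86 and 50 in 5-FU-treated LGR5- libraries, and 24, 15 and 19 in untreated and 97, 154 and 136 in treated LGR5+ libraries. On the CPM scale these were 0.303, 1.04 and 0.944, then 2.47, 5.04 and 3.67 in LGR5- cells, and 1.39, 0.922 and 1.13, then 5.45, 8.47 and 7.95 in LGR5+ cells, again with no overlap. The fold was 6.31 in LGR5+ cells (3.41 to 11.7, adjusted P = 5.80e-04) and 4.81 in LGR5- cells (2.55 to 9.06, adjusted P = 0.00289). Of the 2033 exon bases of Fosl1, 1163 lie opposite exons of Ccdc85b, whose log2 fold change was -0.23 ± 0.23 in LGR5+ and 0.02 ± 0.23 in LGR5- cells (adjusted P = 0.559 and 0.972). The library kit does not keep the strand and the strand setting of the counting is not stated, so reads of the shared bases cannot be told apart.

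Fosl2 (ENSMUSG00000029135; chr5:32135801-32157842, plus strand), which encodes FRA-2, had the smallest folds of the FOS family. It measured 5.33, 6.36 and 6.83 CPM in untreated and 11.6, 9.60 and 13.1 CPM in treated LGR5- libraries, and 4.79, 7.80 and 5.91 CPM in untreated and 9.05, 10.2 and 9.94 CPM in treated LGR5+ libraries. The groups did not overlap in either fraction. It rose 1.85-fold in LGR5- cells (1.32 to 2.58, adjusted P = 0.0157), a call lost without untreated replicate 1 (0.0739) or 5-FU replicate 3 (0.0501). In LGR5+ cells the fold was 1.58 (1.13 to 2.20, adjusted P = 0.0611), and it passed without untreated LGR5+ replicate 2 (adjusted P = 0.0346).

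Jun (ENSMUSG00000052684; chr4:95049034-95052222, minus strand, 1 exon) encodes c-JUN, the subunit activated by JNK phosphorylation. Its 3 untreated LGR5- libraries held 82.9, 63.3 and 75.0 CPM and the treated ones 152, 174 and 82.8 CPM. The LGR5+ libraries held 69.8, 70.6 and 80.4 CPM untreated and 182, 227 and 158 CPM after 5-FU. In LGR5+ cells all treated libraries were above all untreated ones, whereas in LGR5- cells replicate 3 after 5-FU lay at the level of the highest untreated library. Jun rose 2.57-fold in LGR5+ cells (1.79 to 3.70, adjusted P = 0.00168). It rose 1.85-fold in LGR5- cells (1.29 to 2.65, adjusted P = 0.0237), a call lost without untreated replicate 2 (adjusted P = 0.0986), 5-FU replicate 1 (0.0638) or 5-FU replicate 2 (0.112). The antisense transcript Junos, which shares 232 exon bases with Jun and had 31 to 122 reads, had a log2 fold change of 1.53 ± 0.33 in LGR5+ and 1.002 ± 0.32 in LGR5- cells (adjusted P = 0.00560 and 0.0488), and shared reads of this pair cannot be told apart.

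Junb (ENSMUSG00000052837; chr8:84974484-84978718, minus strand) encodes a JUN protein that, depending on its partner, activates or restrains AP-1 targets. It was the member whose response was measured with the smallest standard error. Its level was 84.6, 79.4 and 73.3 CPM in untreated and 185, 213 and 165 CPM in treated LGR5- libraries, and 74.7, 97.5 and 89.0 CPM in untreated and 203, 257 and 237 CPM in treated LGR5+ libraries. No treated library was near an untreated one. The log2 fold change was 1.41 ± 0.18 SE in LGR5+ cells (adjusted P = 1.02e-04) and 1.25 ± 0.18 in LGR5- cells (adjusted P = 3.88e-04). Junb shares 173 exon bases with Prdx2 on the other strand, a gene with 7481 to 11906 reads per library and log2 fold changes of 0.03 ± 0.21 and 0.04 ± 0.21.

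Jund (ENSMUSG00000071076; chr8:70698949-70700616, plus strand, 1 exon) encodes the JUN subunit that many resting cells express constitutively. It was 58.0, 56.0 and 37.9 CPM in untreated and 76.9, 109 and 81.5 CPM in treated LGR5- libraries, and 53.5, 44.9 and 41.0 CPM in untreated and 87.6, 97.8 and 91.7 CPM in treated LGR5+ libraries. These groups did not overlap, and the folds were the smallest of the JUN family. Jund rose 1.99-fold in LGR5+ cells (1.48 to 2.68, adjusted P = 0.00373) and 1.76-fold in LGR5- cells (1.31 to 2.37, adjusted P = 0.0131), the latter not without 5-FU replicate 2 (adjusted P = 0.0698). Of the 1668 exon bases of Jund, 877 lie opposite exons of the antisense gene Gm11175, which had 0 reads in every library.

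**Figure D2:**
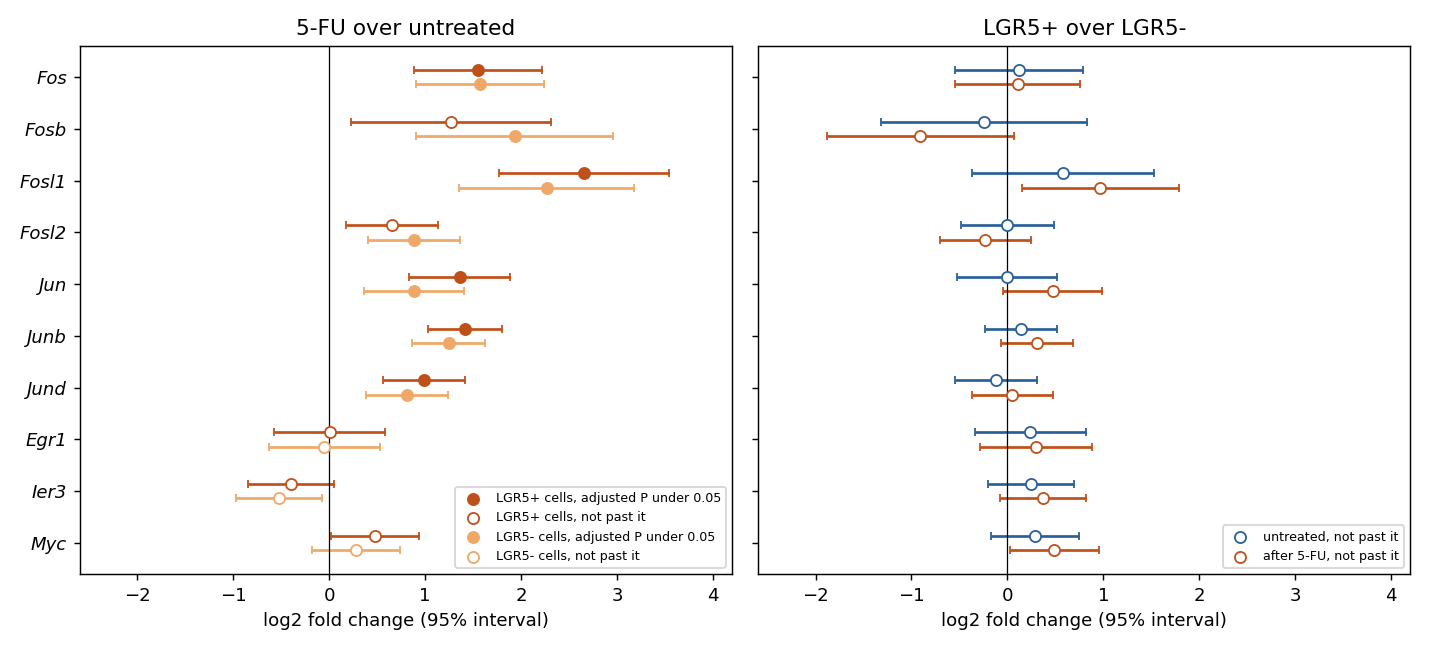
Log2 fold change (x axis) of each member (y axis) with its 95% interval, for 5-FU over untreated (left) and LGR5+ over LGR5- cells (right), with filled points for an adjusted P under 0.05. All 7 AP-1 subunit genes lie above 0 in both 5-FU comparisons, and no point in the right panel is filled.

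Promoters of members that rose together are shown for Fos, Jun, Junb and Jund, which rose in both fractions and have an entry in the RefSeq promoter table (GRCm38.p6, 250 bases before to 50 after the start; 7 of the 10 members matched, all but Fosl1, Egr1 and Myc). Capitals mark the letters TGACGT, the core of the cAMP response element, in Fos and TGACATCA, an AP-1/ATF site variant, in Jun. The Junb and Jund stretches hold neither. The RefSeq start used for Jund lies before the start of the gene model given above. The windows are chr12:85473640-85473939 (plus strand), chr4:95052173-95052472 (minus strand), chr8:84978699-84978998 (minus strand) and chr8:70697489-70697788 (plus strand), each written 5′ to 3′ along the gene.
Fos: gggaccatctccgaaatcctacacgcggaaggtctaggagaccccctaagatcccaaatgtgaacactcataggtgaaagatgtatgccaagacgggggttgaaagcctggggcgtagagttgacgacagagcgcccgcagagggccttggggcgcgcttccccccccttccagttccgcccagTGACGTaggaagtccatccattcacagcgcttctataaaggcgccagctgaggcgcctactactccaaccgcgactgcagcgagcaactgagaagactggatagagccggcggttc
Jun: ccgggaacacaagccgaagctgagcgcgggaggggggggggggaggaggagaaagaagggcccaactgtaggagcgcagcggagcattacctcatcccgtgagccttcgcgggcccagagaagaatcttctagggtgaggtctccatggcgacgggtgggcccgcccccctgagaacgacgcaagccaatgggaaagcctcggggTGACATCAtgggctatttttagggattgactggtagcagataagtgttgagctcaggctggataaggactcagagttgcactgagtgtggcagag
Junb: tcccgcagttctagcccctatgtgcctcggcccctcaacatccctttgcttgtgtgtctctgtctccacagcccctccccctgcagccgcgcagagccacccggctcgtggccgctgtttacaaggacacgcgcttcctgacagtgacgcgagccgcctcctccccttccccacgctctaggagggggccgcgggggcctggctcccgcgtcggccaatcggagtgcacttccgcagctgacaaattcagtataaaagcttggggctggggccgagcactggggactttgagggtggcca
Jund: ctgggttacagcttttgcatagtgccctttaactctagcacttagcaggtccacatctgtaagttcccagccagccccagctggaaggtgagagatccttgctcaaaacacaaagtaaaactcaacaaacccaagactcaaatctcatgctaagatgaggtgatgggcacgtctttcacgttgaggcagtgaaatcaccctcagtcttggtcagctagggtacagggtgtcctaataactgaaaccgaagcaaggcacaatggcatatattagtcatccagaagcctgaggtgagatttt
Searched on both strands, TGACGT was present in 7.51% and TGACATCA in 3.62% of the 32851 promoter windows of the table. In Fos, TGACGT began 66 bases before the start and TATAAA 33 bases before it, and in Junb TATAAA began at the start itself. TATAAA was present in 13.6% of all windows. In Jun, TGACATCA began 45 bases before the start, and Jun and Junb each held CCAAT, which 37.4% of all windows hold. None of the 7 windows held the consensus AP-1 site TGANTCA (7.81% of all windows), TGACGTCA (1.79%; its first letters are those of TGACGT) or a CArG box, the site of serum response factor (1.63%). These matches describe the letters of the windows and say nothing about binding or about sites outside the windows, which were not searched.

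Egr1 (ENSMUSG00000038418; chr18:34859823-34864984, plus strand) encodes a zinc finger factor that is among the fastest genes to respond to growth factor and ERK signals. It was 61.3, 101 and 58.2 CPM in untreated and 87.0, 75.6 and 50.7 CPM in treated LGR5- libraries, and 65.6, 113 and 82.0 CPM in untreated and 108, 76.8 and 77.7 CPM in treated LGR5+ libraries. The treated and untreated libraries were interleaved. The fold was 1.004 in LGR5+ cells (95% interval 0.672 to 1.501, adjusted P = 0.992) and 0.966 in LGR5- cells (0.646 to 1.45, adjusted P = 0.928). These intervals end below the folds of all FOS and JUN family genes in the same fraction, but overlap the intervals of some of them. Differences between genes were not tested.

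Ier3 (ENSMUSG00000003541; chr17:35821684-35822923, plus strand), an early response gene linked to survival and to NF-κB and ERK signaling, was the most abundant member per length. It had 351, 392 and 360 CPM in untreated and 302, 269 and 197 CPM in treated LGR5- libraries, and 344, 537 and 429 CPM in untreated and 357, 321 and 317 CPM in treated LGR5+ libraries. In LGR5- cells the treated libraries were all below the untreated ones, while in LGR5+ cells the groups overlapped. The fold was 0.696 in LGR5- cells (0.510 to 0.950, unadjusted P = 0.0253, adjusted P = 0.112 by edgeR) and 0.759 in LGR5+ cells (0.557 to 1.04, adjusted P = 0.225).

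Myc (ENSMUSG00000022346; chr15:61985391-61990374, plus strand), which encodes the growth regulator c-MYC, was 137, 137 and 88.6 CPM in untreated and 138, 188 and 114 CPM in treated LGR5- libraries. In LGR5+ libraries it was 142, 156 and 146 CPM untreated and 187, 212 and 219 CPM after 5-FU. The LGR5+ groups did not overlap and the LGR5- groups did. The fold was 1.39 in LGR5+ cells (1.01 to 1.92, adjusted P = 0.151) and 1.21 in LGR5- cells (0.881 to 1.67, adjusted P = 0.435).

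By the values of single libraries, 8 of 10 members in LGR5+ cells lay higher in all treated than in all untreated libraries (22.3% of all genes did), and 6 of 10 in LGR5- cells did (13.7%). Ier3 in LGR5- cells was the 1 member lower without overlap (13.4% of all genes). An exact two-sided permutation test of 3 libraries against 3 cannot give a P under 0.1, and each member whose groups did not overlap had that smallest value. When the 2 LGR5- replicate 3 libraries with the high mitochondrial share were left out, the LGR5- count stayed at 7 of 10 members (9.53% of all genes were called higher in that fit), with log2 fold changes of 1.72 ± 0.29 for Fos, 2.09 ± 0.48 for Fosb, 2.45 ± 0.50 for Fosl1, 0.86 ± 0.26 for Fosl2, 1.16 ± 0.20 for Jun, 1.28 ± 0.18 for Junb and 0.70 ± 0.19 for Jund. In that fit the LGR5+ count, whose own libraries were unaffected but share the estimate of the spread, became 8 of 10 where 15.1% of all genes were called higher, with Fosb (adjusted P = 0.0277), Fosl2 (0.0319) and Myc (0.0217) added. A fit of only the 6 LGR5+ libraries also called 8 members, with 14.6% of all genes called higher, and one of only the 6 LGR5- libraries called 4, with 4.82%, so the member counts moved with those of all genes.

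Compared per length of exon, the order of the members in untreated LGR5- cells was Ier3 (325 ± 19.2 CPM per kb), Myc (44.5 ± 10.3), Junb (34.4 ± 2.47), Jund (30.4 ± 6.63), Jun (23.1 ± 3.09), Egr1 (16.4 ± 5.37), Fos (7.20 ± 2.94), Fosl2 (0.638 ± 0.0792), Fosl1 (0.375 ± 0.198) and Fosb (0.166 ± 0.0891). Myc and Junb, and Junb and Jund, differed by less than the larger of their SDs. In 5-FU-treated LGR5+ cells Junb (101 ± 11.9 CPM per kb) stood above Myc (75.7 ± 6.27), and Fosl1 (3.59 ± 0.794) above Fosl2 (1.004 ± 0.0614). In untreated LGR5+ cells Myc (54.4 ± 2.70) stood above Junb (37.8 ± 4.99), while Fosl2 (0.637 ± 0.157) and Fosl1 (0.564 ± 0.114) differed by less than the larger SD. Jun (59.3 ± 10.8) and Jund (55.4 ± 3.05), and Fos (23.0 ± 3.40) and Egr1 (19.5 ± 3.91), did not differ beyond their spread in 5-FU-treated LGR5+ cells.

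The 7 AP-1 subunit genes together summed to 96.2 ± 7.24 CPM per kb in untreated LGR5- and 98.0 ± 5.05 in untreated LGR5+ cells, and to 203 ± 28.5 and 243 ± 26.9 after 5-FU (SD, n = 3). JUN family genes made up 82.1% to 93.7% of this sum in every library, and Junb alone 35.2% to 43.7%. The FOS family share overlapped between treated and untreated libraries of each fraction, from 6.31% to 17.9% over all libraries. Within the sum, the share of Fosl1 was 0.581% ± 0.148 in untreated and 1.47% ± 0.231 in treated LGR5+ cells, and 0.400% ± 0.223 and 0.897% ± 0.240 in LGR5- cells, without overlap. These are shares of mRNA, not of protein or dimers. Levels per length, here and in the order above, divide by all exon bases. How reads of bases shared with another gene were counted is not stated. This bears most on Fosl1 and Jund, whose levels and shares per length are uncertain for that reason.

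**Figure D3:**
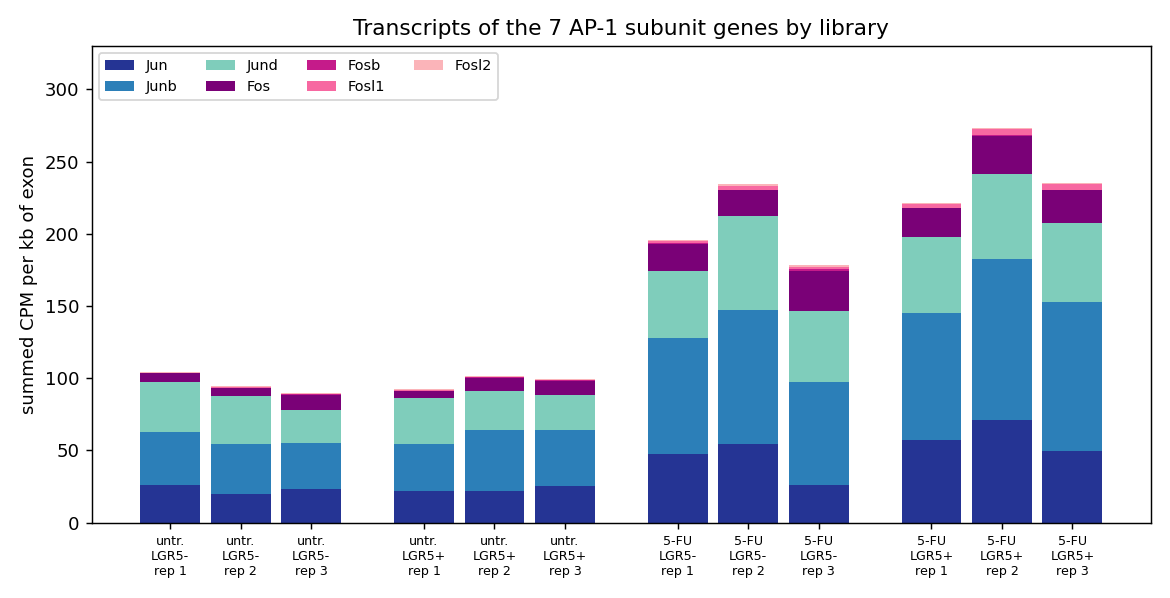
Summed CPM per kb of exon (y axis, from 0) of the 7 AP-1 subunit genes in each of the 12 libraries (x axis, grouped by treatment and fraction), stacked by gene. The treated libraries reach 178 to 274 and the untreated ones 90.1 to 104, and the JUN family (blue and green) fills most of each bar.

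LGR5+ and LGR5- cells were then compared within each treatment, the question being whether the fraction studied as tumor-initiating differed from the rest. In untreated cells none of the 10 members passed the test at an adjusted or an unadjusted P under 0.05 by edgeR, and none did by DESeq2. Among all genes, 0% passed at an adjusted P and 1.32% at an unadjusted P under 0.05. The log2 fold changes of the members lay between -0.25 for Fosb (95% interval -1.32 to 0.82) and 0.58 for Fosl1 (-0.37 to 1.52). Myc was the 1 member with all LGR5+ libraries above all LGR5- libraries (2.70% of all genes), at 148 ± 7.35 against 121 ± 28.0 CPM and a log2 fold change of 0.29 ± 0.22 SE. Without LGR5- replicate 3 of both treatments the values were 0.27 ± 0.48 for Fosb, 0.75 ± 0.51 for Fosl1 and 0.11 ± 0.16 for Myc, again with 0 members called. The Lgr5 mRNA values above stand beside this comparison.

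After 5-FU, again 0 of 10 members passed at an adjusted P under 0.05 by edgeR, as did 0% of all genes, and 0 by DESeq2. At an unadjusted P under 0.05 there were 2 members, against 13.0% of all genes: Fosl1, 1.96-fold higher in LGR5+ cells (1.11 to 3.45, unadjusted P = 0.0235, adjusted P = 0.361), and Myc, 1.40-fold higher (1.02 to 1.93, unadjusted P = 0.0391, adjusted P = 0.373). Fosl1 and Ier3 were the 2 members with all LGR5+ libraries above all LGR5- libraries (14.2% of all genes). Fosb had the opposite sign, at 2.13 ± 0.823 CPM in LGR5+ and 4.01 ± 1.62 CPM in LGR5- cells (log2 fold change -0.91 ± 0.46 SE, adjusted P = 0.399 by edgeR), with overlapping libraries. Without LGR5- replicate 3 of both treatments 0 members and 0 genes passed, and the log2 fold changes were -0.55 ± 0.40 for Fosb, 0.95 ± 0.39 for Fosl1, 0.34 ± 0.16 for Myc and 0.21 ± 0.18 for Jun, the last against 0.47 ± 0.24 with them. In the 6 libraries of this comparison the replicate numbers were taken as pairs, from correlations and not from labels. A fit of these libraries with the replicate number as a block called 451 of 15196 genes, with no member among them. Fosl1 came nearest, at a log2 fold change of 0.92 ± 0.22 and an adjusted P of 0.0508.

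The difference between the fractions in the response to 5-FU was tested directly. Of the members, 0 passed by edgeR at an adjusted P under 0.05 and 0 at an unadjusted P under 0.05, and 0 by DESeq2, where 0% and 1.57% of all genes passed with edgeR. The member differences ranged from a log2 value of -0.66 for Fosb (95% interval -2.11 to 0.79) to 0.48 for Jun (-0.26 to 1.21), and without LGR5- replicate 3 of both treatments these were -0.82 ± 0.63 and 0.20 ± 0.25 SE. That Fosb and Fosl2 were called in LGR5- cells and not in LGR5+ cells is therefore not a shown difference. Junb, the member with the narrowest interval, still allowed log2 differences from -0.36 to 0.70 at 3 libraries per group.

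Libraries of the same group differed in how the members sat relative to each other. Over the 12 libraries, deviations of log2 CPM from the group means were correlated between -0.73 and 0.88 in the 45 pairs of members, with a median of 0.07 and 26 pairs above 0, so the 10 genes did not move as 1 block within groups. The highest coefficients were those of Egr1 with Ier3 (0.88), Fos with Fosb (0.85), Jund with Myc (0.81) and Junb with Myc (0.74). The lowest was that of Fos with Jund (-0.73), then Fosb with Jund (-0.63) and Fosb with Egr1 (-0.62). These are descriptions over 12 points that share library depth and preparation within a library, with 4 group means removed. Over the 10 libraries without LGR5- replicate 3 the order of the pairs was another one, within -0.59 and 0.88, with a median of 0.12 and 28 pairs above 0. Egr1 with Ier3 stayed at 0.88, followed by Fosl2 with Ier3 (0.87, from 0.31), Fos with Junb (0.76, from 0.12), Junb with Myc (0.72) and Fosl2 with Egr1 (0.70, from 0.20), while Fos with Fosb was at 0.69 and Jund with Myc at 0.65. The lowest pair was Jund with Ier3 (-0.59, from -0.14), Fos with Jund was at -0.50, Fosb with Egr1 at -0.36 and Fosb with Jund at -0.31, and Fos with Myc changed sign, from -0.53 to 0.21.

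LGR5- replicate 3 contributed to this pattern in both treatments. Fos, Fosb and Fosl2 (3 members) were highest, and Junb, Egr1 and Myc (3 members) lowest, of the LGR5- libraries in untreated as well as treated cells. The share of all genes with such ranks was not counted, so these ranks are not shown to be particular to the members. The same 2 libraries had the mitochondrial shares of 6.93% and 6.44%, and the lowest sums of 13 heat shock genes known to respond to tissue dissociation, at 5132 CPM against 9071 and 10075 CPM in the other untreated LGR5- libraries and 3993 CPM against 6169 and 7271 CPM in the treated ones. The part of these library properties in the levels of Fos or Egr1 was not tested. Of these heat shock genes, 1 of 13 rose with 5-FU and 0 fell in LGR5+ cells (9.66% and 6.37% of all genes), namely Hspb1, from 105 ± 15.8 to 450 ± 115 CPM. In LGR5- cells Hspb1 rose and Hspd1 fell (8.30% and 7.11% of all genes). Without both replicate 3 libraries 2 were higher and 0 lower in LGR5+ cells (15.1% and 12.4% of all genes), and 1 higher and 3 lower in LGR5- cells (9.53% and 7.41%). In the fit of all 12 libraries the list's median log2 fold change was 0.07 in LGR5+ and -0.18 in LGR5- cells, and that of the 10 members was 1.13 and 0.89. Over all genes tested the medians were -0.02 and -0.05.

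**Figure D4:**
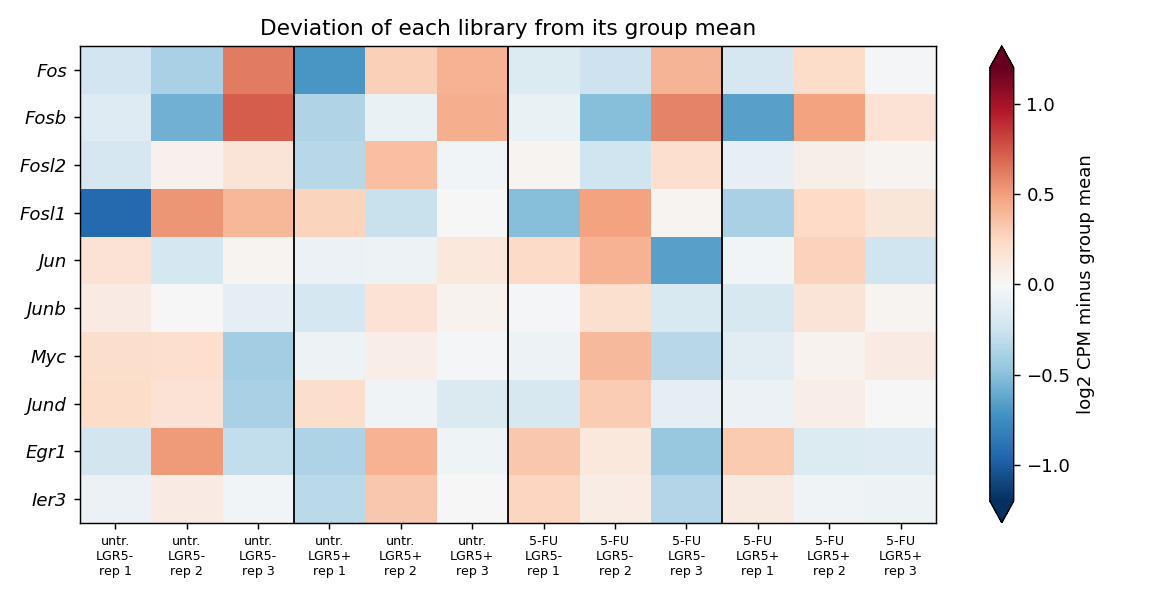
Log2 CPM minus the group mean (color scale) of the 10 members (rows) in the 12 libraries (columns, black lines between groups). Fos and Fosb share their highs and lows in most libraries, for example above the mean in both LGR5- replicate 3 libraries, where Egr1 is below it.

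The genes whose deviations were most like those of Fos were Acrbp (r = 0.97), Cramp1l (0.97), Gm20186 (0.96), Trp63 (0.95) and Gm43823 (0.95), and those most like Fosl1 were Scnn1g (0.96), Sncaip (0.92), Prkag1 (0.92), Sesn3 (0.90) and Zfp419 (0.89), each the top of 16157 genes over 12 libraries. Over the 10 libraries without LGR5- replicate 3 these genes had coefficients of 0.90 to 0.95 with Fos and 0.93 to 0.98 with Fosl1. As these genes were picked over 12 libraries that include those 10, these values are no independent check. No member was among them, and all but Cramp1l, Prkag1 and Sesn3 stayed at or below 9.98 CPM.

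Of the 36 other immediate early genes listed, 33 were tested, of which 16 rose and 0 fell in LGR5+ cells (9.66% and 6.37% of all genes) and 12 rose and 0 fell in LGR5- cells (8.30% and 7.11%), with median log2 fold changes of 0.63 and 0.54. Ccn1, which encodes a matrix-associated growth factor-like protein, went from 9.51 ± 2.66 to 65.0 ± 16.7 CPM in LGR5+ cells (log2 fold change 2.77 ± 0.26, adjusted P = 9.10e-06) and from 12.01 ± 2.88 to 53.6 ± 6.34 CPM in LGR5- cells. Sgk1, a serum- and glucocorticoid-induced kinase, went from 7.99 ± 1.79 to 38.6 ± 6.88 CPM and from 7.09 ± 0.440 to 26.8 ± 5.14 CPM. Btg2 and Plk2, which are known p53 targets as well as early response genes, rose by log2 values of 2.07 ± 0.21 and 2.45 ± 0.27 in LGR5+ cells and of 2.05 ± 0.21 and 2.06 ± 0.26 in LGR5- cells. Dusp1, which encodes a phosphatase that shuts off p38 and JNK and which was picked after its values were seen, had the largest log2 fold change of the list, 3.02 ± 0.36 in LGR5+ and 2.69 ± 0.36 in LGR5- cells. Egr2, a relative of Egr1 that was likewise picked afterwards, was at 0.50 ± 0.56 and -0.26 ± 0.57 and did not pass. Without both LGR5- replicate 3 libraries 22 of the list rose and 2 fell in LGR5+ cells, where that fit called 15.1% of all genes higher and 12.4% lower, and 13 rose and 0 fell in LGR5- cells (9.53% and 7.41%).

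Among 14 tested dimer partners of AP-1 proteins the calls went both ways, 3 higher and 2 lower in LGR5+ (9.66% and 6.37% of all genes) and 2 higher and 3 lower in LGR5- cells (8.30% and 7.11%), with medians of 0.13 and 0.05. Crem, a cAMP-responsive factor, rose from 17.9 ± 2.85 to 30.1 ± 2.28 CPM in LGR5+ cells. Atf4, the factor of the integrated stress response, fell from 255 ± 64.9 to 126 ± 9.70 CPM, and Jdp2, a JUN-binding repressor of AP-1, from 7.66 ± 1.99 to 2.86 ± 0.372 CPM in LGR5+ cells. These 3 genes changed in the same direction in LGR5- cells, with adjusted P values of 0.00577, 0.00618 and 0.00422. Without both LGR5- replicate 3 libraries 4 partners rose and 3 fell in LGR5+ cells (15.1% and 12.4% of all genes), and 3 rose and 3 fell in LGR5- cells (9.53% and 7.41%).

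In the MYC network 4 of 12 genes rose and 2 fell in LGR5+ cells (9.66% and 6.37% of all genes), and 3 rose and 2 fell in LGR5- cells (8.30% and 7.11%). Mxd4, which encodes a MAX partner that opposes MYC, rose from 34.0 ± 2.01 to 121 ± 31.0 CPM in LGR5+ cells, and Mxd3, of the same family, fell from 24.0 ± 3.73 to 5.38 ± 3.82 CPM. Mycn, the paralog of Myc, rose from 1.17 ± 0.196 to 5.25 ± 0.621 CPM, and Mlxipl, the carbohydrate response factor ChREBP, fell from 19.8 ± 2.60 to 6.23 ± 0.930 CPM. In LGR5- cells these 4 genes passed in the same directions, while without both replicate 3 libraries 3 of the list rose and 1 fell there (9.53% and 7.41% of all genes), and 4 rose and 3 fell in LGR5+ cells (15.1% and 12.4%).

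Of 23 kinases, RAS genes, receptors and ETS factors upstream of immediate early genes, 3 rose in LGR5+ and 2 in LGR5- cells and 0 fell, shares near the 9.66% and 8.30% of all genes called higher, and the medians were -0.03 and -0.19. Without both LGR5- replicate 3 libraries 5 rose and 1 fell in LGR5+ cells (15.1% and 12.4% of all genes), and 2 rose and 1 fell in LGR5- cells (9.53% and 7.41%). Elk3, a serum response factor partner, went from 11.5 ± 1.18 to 33.0 ± 1.70 CPM in LGR5+ and from 10.3 ± 0.635 to 25.3 ± 2.81 CPM in LGR5- cells, and Egfr from 3.46 ± 0.250 to 10.1 ± 0.983 CPM and from 3.58 ± 0.855 to 6.87 ± 0.557 CPM. Hras passed in LGR5+ cells, with 80.4 ± 13.6 CPM untreated and 144 ± 20.1 CPM treated.

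Of 21 genes known as AP-1 targets, 13 passed the filter and were tested, and 6 rose and 0 fell in each fraction, where 9.66% and 8.30% of all genes rose, with medians of 1.06 and 1.02. Areg, an EGF receptor ligand, rose from 7.78 ± 0.625 to 58.5 ± 12.5 CPM in LGR5+ and from 7.73 ± 2.39 to 41.9 ± 6.19 CPM in LGR5- cells, Lif, a cytokine of the IL-6 family, from 5.63 ± 0.917 to 19.8 ± 2.38 CPM in LGR5+ cells, and Plau, the urokinase, from 1.26 ± 0.350 to 6.74 ± 0.901 CPM. Its receptor gene Plaur rose from 6.32 ± 0.998 to 31.2 ± 10.4 CPM in LGR5+ cells, and Cd44, the hyaluronan receptor, from 113 ± 28.9 to 372 ± 81.4 CPM in LGR5- cells. Without both LGR5- replicate 3 libraries 14 were tested, of which 9 rose and 0 fell in LGR5+ cells (15.1% of all genes rose), with a median of 1.27, and 6 rose and 0 fell in LGR5- cells (9.53%), with a median of 0.27 in place of 1.02. Other factors act on these genes too, and whether AP-1 took part was not tested.

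Markers of other cells moved with treatment beside these results. Summed epithelial markers were 3095 to 4259 CPM in untreated and 4955 to 15630 CPM in treated libraries, and cholangiocyte markers 1142 to 1646 and 2751 to 10489 CPM. Of 5 epithelial markers 4 rose in LGR5+ and 3 in LGR5- cells, and of 5 cholangiocyte markers 2 rose in each, where 9.66% and 8.30% of all genes rose. Krt19 is on both lists. Without both LGR5- replicate 3 libraries these counts were the same, where 15.1% and 9.53% of all genes rose. Spp1, on the cholangiocyte and AP-1 target lists, did not pass. The 5 macrophage markers summed to 6.41 to 14.1 CPM untreated and 17.3 to 54.7 CPM after 5-FU, with Cd68, a lysosomal protein gene, rising in both fractions, which were sorted without CD45-stained cells. Of the other 4 macrophage markers, Adgre1 had 0 to 3 reads, C1qa 0 to 1, Csf1r 1 to 4 and Ptprc, the gene of CD45, 4 to 36 in the LGR5+ libraries, and 2 to 7, 0 to 5, 0 to 11 and 3 to 21 in the LGR5- libraries. Fibroblast markers summed to 40.0 to 49.5 CPM untreated and 26.2 to 60.6 CPM treated, with Col1a2 and Col3a1 at no more than 3 reads and Pdgfrb falling in both fractions, though in LGR5- cells not without both replicate 3 libraries. Endothelial markers summed to at most 4.12 CPM. The part of these markers' change in the AP-1 result was not tested, and in bulk RNA a change in the number of cells of a kind cannot be told apart from one in RNA per cell.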

How the data were processed

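The deposited table holds whole-number read counts per Ensembl gene, without normalization, for 12 libraries. Per the labels and the study's methods, sorted cells were amplified with a SMART-Seq v4 kit and sequenced as 150-base read pairs. The submitters' processing notes name HISAT2, HISAT, TopHat2, HTSeq and the build mm8, with no role or version, and the strand setting and the annotation are not given in the sources used here. Groups were read from the titles, in which Co and Tr were taken as untreated and 5-FU and Neg and Pos as the GFP fractions.

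Symbols came from GENCODE M21 (GRCm38), which matched 46488 of 47069 identifiers and left 581 without one. Positions describe that annotation and not the authors' counting. Counts were filtered (filterByExpr), TMM-scaled and fitted with edgeR 4.0.16 in R 4.3.3 (glmQLFit, robust, 4 group means), and contrasts were tested by glmQLFTest with Benjamini-Hochberg adjustment. The biological coefficient of variation was 26.6%. Intervals are 95%. DESeq2 1.42.0 was an alternative, and the others were unfiltered counts, a minimum of 10 reads per library, RLE factors, library size only, a replicate block, only the libraries compared and each library left out. No 2 libraries were copies: chi-square per degree of freedom was at least 4.42 for any pair. That lowest value was for replicate 1 of untreated LGR5- and LGR5+, and within groups it was at least 15.1. Scripts were tested on simulated data. Permutation tests used scipy 1.17.1.

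Deviations from group means correlated between same-numbered libraries at 0.57, 0.22 and 0.30 for the treated fractions, and at most at 0.12 between differently numbered ones. Those numbers were therefore taken as pairs, from the data and not from the labels, which 3 coefficients do not prove. In the other comparisons at least 1 of the 3 coefficients was below 0.1, though replicate 1 of untreated LGR5- and LGR5+ correlated at 0.48. Members, lists and tests were chosen with earlier results of these data known. From each list the genes named are at most the 4 with the smallest P among those passing per 5-FU comparison, and the 5 genes most like Fos and Fosl1. Dusp1, Egr2, Spp1 and the genes that overlap a member were named outside this rule, after their values were seen. The values of 1 gene that this rule names are not reported here. Sequences are from RefSeq.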

Additional observations from a re-analysis of the deposited data

How the results depend on the processing

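The calls of Fos, Fosl1, Jun, Junb and Jund in LGR5+ cells and of Fos, Fosl1 and Junb in LGR5- cells passed in every alternative run, except that Fosl1 was not tested under the minimum of 10 reads per library. The count of members called was 5 in LGR5+ and 7 in LGR5- cells. With only the 6 libraries compared it was 8 and 4, as Fosb, Fosl2 and Myc passed in LGR5+ cells and Fosl2, Jun and Jund did not in LGR5- cells, while the genes called went from 2590 to 4045 and from 2489 to 1282. Without LGR5- replicate 3 of both treatments 4448 genes were called in LGR5+ cells. Leaving libraries out gave 5 to 8 members in LGR5+ cells, the 8 without both LGR5- replicate 3 libraries (15.1% of all genes higher) and 5 to 6 otherwise (6.01% to 8.24%), and 5 to 7 in LGR5- cells (5.34% to 10.96%). The replicate block gave 6 and 7 members, with Fosb added in LGR5+ cells (adjusted P = 0.0468), where the libraries share only a number, and it changed no other call of a member. With the block 1688 and 1486 of 16157 genes were called higher in LGR5+ and LGR5- cells, against 1561 and 1341 without it. In the comparison after 5-FU, whose replicate numbers were taken as pairs, the block with all 12 libraries called 0 genes and with only the 6 compared 451, against 0 without the block. For that comparison DESeq2 called 79 genes and the fit without a filter 11, with no member in either. DESeq2 also called Fosl2 in LGR5+ cells (adjusted P = 0.0428).

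Egr1 in LGR5+ cells changed sign around 0, at a log2 fold change of -0.021 without a filter, -0.0058 with at least 10 reads, -0.0024 with RLE factors and -0.082 with library size only, and from -0.17 to 0.24 when a library was left out. In LGR5- cells it ran from -0.22 to 0.25 when a library was left out. Fosb in untreated LGR5+ against LGR5- cells ran from -0.52 to 0.27, positive without LGR5- replicate 3. Over all members and alternatives, the untreated, the treated and the response-difference comparisons changed sign in 23, 8 and 16 values, none of them called. Library size only moved the median of all genes in LGR5+ cells from -0.02 to -0.10. Fosb and Fosl1 had only 5 to 154 reads per library, and the part of counting error in their spread was not tested.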
